A study of Homo sapiens with 7 samples.

Results

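The 8 genes SREBF2, SCAP, INSIG1, INSIG2, SCARB1, LRP1, MTTP and ASGR1 were followed in HepG2, a cell line grown from a human liver tumour. They were found by symbol in the gene column of the RNA-Seq table, and each symbol matched 1 locus, so all 8 were taken from the 22065 named loci that have a place on chromosomes 1 to 22, X or Y, a strand and a usable status. The series holds 7 samples of HepG2 cells with 1 sample per assay, and the labels name no treatment, clone or time. Nucleosomes were mapped by native MNase-Seq, RNA by RNA-Seq, and 5 histone marks by ChIP-Seq, the activation marks H3K27ac, H3K9ac and H3K4me3 and the repressive marks H3K9me3 and H3K27me3. There was no second condition and no replicate sample, so every value below is a description and no P value was computed. As a check of the label, 8 of 8 hepatocyte marker genes had an FPKM (fragments per kilobase of transcript, scaled to the total of mapped fragments) of at least 56.6, led by ALB with 10010.7, whereas 0 of 5 blood cell markers had an FPKM of at least 1, and PTPRC and CD3E were listed at 0. Of 6 endothelial and stellate cell markers, ACTA2 had 33.9 and COL1A2 had 1.16, and the others were below 1; DCN had 0.0430.

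These genes sit at both ends of cholesterol handling in the liver. SREBF2 encodes the transcription factor SREBP-2, whose precursor is held in the endoplasmic reticulum membrane by SCAP, the sterol-sensing escort protein, together with the anchors INSIG1 and INSIG2. When sterols are scarce, SCAP carries the precursor to the Golgi, where it is cut and released to switch on genes of cholesterol synthesis and lipoprotein uptake. SCARB1 takes cholesteryl esters from high-density lipoprotein, LRP1 is a large endocytic receptor that clears lipoprotein remnants, and ASGR1 is the major subunit of the asialoglycoprotein receptor, which removes glycoproteins that have lost sialic acid. MTTP transfers lipid onto apolipoprotein B while it is made in the endoplasmic reticulum. H3K4me3, H3K9ac and H3K27ac mark active promoters, H3K27ac without H3K4me3 is common at enhancers, and H3K27me3 and H3K9me3 are marks of silent chromatin.

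Promoter sequences were available in the RefSeq table (build GRCh38.p14) for 6 of the 8 genes and not for SCARB1 and ASGR1. Those shown here are the pair INSIG1 and INSIG2, which encode related anchors but lay far apart in RNA level, SREBF2, whose listed start had the trivalent mark at every marked position, and the pair of MTTP starts, since the locus had marks near the TSS and again inside the gene. Each is the 250 bases before a start on the plus strand, written 5′ to 3′, at chr22:41832855-41833104 for SREBF2, chr7:155297628-155297877 for INSIG1, chr2:118088221-118088470 for the first of the starts of INSIG2, and chr4:99563880-99564129 and chr4:99574574-99574823 for MTTP. Capitals mark matches, on either strand, to TCACNCCAC (the core of a sterol regulatory element), CACGTG (the E-box), ATTGG (the NF-Y motif), GGGCGG (the Sp1 box) or the DR1 element.
SREBF2: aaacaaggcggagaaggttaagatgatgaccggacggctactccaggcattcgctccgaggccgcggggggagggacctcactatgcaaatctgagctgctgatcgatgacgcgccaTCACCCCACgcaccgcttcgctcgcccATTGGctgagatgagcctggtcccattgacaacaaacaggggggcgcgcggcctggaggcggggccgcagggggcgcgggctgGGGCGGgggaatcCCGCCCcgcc
INSIG1: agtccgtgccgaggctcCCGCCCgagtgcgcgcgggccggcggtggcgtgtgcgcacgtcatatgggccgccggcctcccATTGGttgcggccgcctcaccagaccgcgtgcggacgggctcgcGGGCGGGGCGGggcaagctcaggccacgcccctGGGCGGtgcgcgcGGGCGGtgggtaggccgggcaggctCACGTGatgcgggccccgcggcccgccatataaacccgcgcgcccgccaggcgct
INSIG2: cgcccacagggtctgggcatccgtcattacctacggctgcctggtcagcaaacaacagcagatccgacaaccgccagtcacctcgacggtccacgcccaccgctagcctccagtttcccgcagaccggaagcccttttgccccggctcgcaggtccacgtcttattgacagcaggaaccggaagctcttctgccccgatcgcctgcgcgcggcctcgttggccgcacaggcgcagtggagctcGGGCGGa
MTTP upstream start: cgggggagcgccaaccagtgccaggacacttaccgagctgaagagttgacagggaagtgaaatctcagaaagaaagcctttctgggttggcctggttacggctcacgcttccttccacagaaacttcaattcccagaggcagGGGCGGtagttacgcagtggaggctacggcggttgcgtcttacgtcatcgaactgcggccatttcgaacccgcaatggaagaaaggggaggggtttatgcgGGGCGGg
MTTP downstream start: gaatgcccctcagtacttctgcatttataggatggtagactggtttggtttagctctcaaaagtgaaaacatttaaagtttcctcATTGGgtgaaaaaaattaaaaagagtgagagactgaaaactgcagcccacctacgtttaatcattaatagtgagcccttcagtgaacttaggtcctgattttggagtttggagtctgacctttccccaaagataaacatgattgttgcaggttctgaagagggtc

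Motifs were counted in windows of 300 bases, 250 before and 50 after the start. The promoter of SREBF2 held the sterol regulatory element core as TCACCCCAC, with its first base at -133 from the start, and it was the only one of the 8 promoter windows of these 6 genes with a match to that motif, which is in 1.13% of the 35116 promoters of the table. SREBF2 also had an NF-Y motif at -106 and 3 Sp1 boxes. The INSIG1 promoter had an E-box at -55, an NF-Y motif at -170 and 6 Sp1 boxes, of which the pair at -126 and -121 overlap by 1 base, and its GC content of 78.3% was higher than that of 95.7% of the promoters. The first INSIG2 promoter had 1 Sp1 box and a GC content of 66.0%. The SCAP promoter had an E-box at -58 and 4 Sp1 boxes, and that of LRP1 had 1 Sp1 box. The MTTP starts differed: the upstream window had 2 Sp1 boxes and 55.3% GC, and the downstream window had 1 NF-Y motif and 42.0% GC. An E-box is in 7.26% of all promoters, the NF-Y motif in 34.6%, the Sp1 box in 45.0% and DR1 in 0.0228%. None of the 8 promoter windows matched DR1 in its exact form, and variant forms were not searched. The search finds letters and not binding.

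RNA levels were first compared in FPKM, which is scaled to transcript length, so that levels can be compared between genes. The table gives 2 FPKM columns for the 1 RNA-Seq sample, here called run 1 and run 2, and whether these are separate cultures is not given in the sources used here. Of the 8 genes, 7 had a mean FPKM of at least 1, against 51.4% of all named loci, and INSIG1 was the exception. The median of the 8 was 37.6, and the median of all named loci was 1.26.

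**Figure D1:**
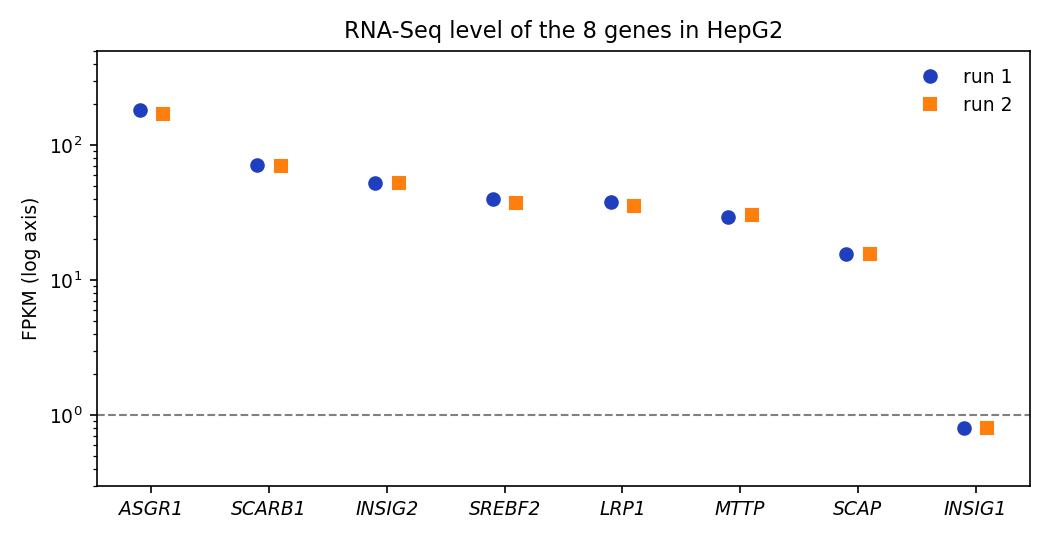
RNA-Seq level of each gene in FPKM on a log axis, in run 1 (circles) and run 2 (squares) of the single sample, ordered by the mean. The dashed line is an FPKM of 1. The 7 upper genes lie between 15.6 and 181 and INSIG1 lies at 0.80 in both runs.

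ASGR1 had the highest level, with 181 in run 1 and 171 in run 2, above 98.3% of named loci. SCARB1 followed with 71.0 and 69.5, and INSIG2 with 52.2 and 52.7. SREBF2 had 40.0 and 37.0 and LRP1 had 38.0 and 35.4, so the ranges of these neighbours overlapped and their order was not resolved. MTTP had 29.3 and 30.3, and SCAP had 15.6 and 15.7. INSIG1 came last with 0.802 and 0.801, which left 47.3% of named loci below it. INSIG1 is known as a sterol-responsive gene that liver cells express, the reads behind this low value were not examined here, and whether the listed FPKM gives the true RNA level of INSIG1 was not tested. For every other neighbouring pair in this order the runs did not overlap, and the largest step was between SCAP and INSIG1, with a ratio of the means of 19.5. The INSIG proteins serve as anchors for the same complex, and the mean FPKM of INSIG2 was 65.4 times that of INSIG1. Between runs the ratio of run 1 to run 2 was from 0.967 for MTTP to 1.08 for SREBF2.

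Some of these values rest on loci that are not separate in the table. SCAP shares its listed coordinates with PTPN23, which lies beside it in RefSeq, lies on the opposite strand and had 7.24 FPKM (run 1) and 6.79 FPKM (run 2). SREBF2 shares its coordinates with the microRNA gene MIR33A and LRP1 with MIR1228, both listed at 0. The locus of INSIG1 has its own coordinates, and no other locus of the table reaches into its window of 10 kb on either side. It is listed with 14425 bp, 2067 bp more than the gene has in RefSeq (12358 bp), and at which end the extra length lies was not tested. SCAP is listed with 35803 bp more than in RefSeq, and the other 6 differ by -663 to 428 bp. Exons, introns and UTRs were not assigned, since no annotation of hg19 was used here.

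Next, nucleosome positions with histone marks were counted over each locus plus 10 kb on either side. The windows held 3139 nucleosome positions, of which 149 carried at least 1 mark. This is 4.75% (exact 95% interval 4.03 to 5.55, covering counting error only), compared with 1.43% in the genome. The genome also holds regions far from genes, and shares per mark over the windows of all named loci are given below. The lists used here hold 203848 marked positions, far fewer than the study's own total. A mark described below as not found is therefore one missing from these lists. Of the 149 marked positions, 61 were within 2 kb of the transcription start site (TSS) and 88 were farther away. The share was highest at ASGR1, with 19 of 140 positions or 13.6% (8.37 to 20.4), and lowest at INSIG1, with 3 of 169 or 1.78% (0.368 to 5.10). These intervals treat positions as independent. Marked positions often lie side by side, with 15 of the 19 at ASGR1 in 1 stretch, so the intervals are too narrow. INSIG2 had 18 of 238 (7.56%), SCAP 33 of 618 (5.34%), SCARB1 26 of 549 (4.74%), SREBF2 20 of 482 (4.15%), LRP1 20 of 547 (3.66%) and MTTP 10 of 396 (2.53%). The density of positions themselves, marked or not, was similar, from 4.91 per kb at INSIG1 to 5.54 per kb at INSIG2.

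The marks of active chromatin dominated. H3K27ac was at 119 positions, H3K4me3 at 73 and H3K9ac at 72, and each was found at 7 of the 8 genes but not at INSIG1. Among all named loci, 67.9% had H3K27ac in their window, 73.7% had H3K4me3 and 73.7% had H3K9ac. H3K27me3 was at 5 positions, in the windows of SREBF2, INSIG1 and LRP1, or 3 of 8 genes against 31.2% of named loci. H3K9me3 was at 1 position, in the window of INSIG1, against 31.9% of named loci. When each position was counted under its exact set of marks, H3K27ac alone was most frequent with 56 positions, followed by the trivalent mark H3K4me3/H3K9ac/H3K27ac ("T") with 53 and H3K4me3 alone with 13.

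The sets of marks divided by distance. Within 2 kb of the TSS, "T" made up 41 of the 61 marked positions, or 67.2%, and H3K27ac alone 8, or 13.1%. Farther away, H3K27ac alone made up 48 of 88, or 54.5%, and "T" 12, or 13.6%. H3K9ac alone was found at 7 positions, all of them beyond 2 kb.

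**Figure D2:**
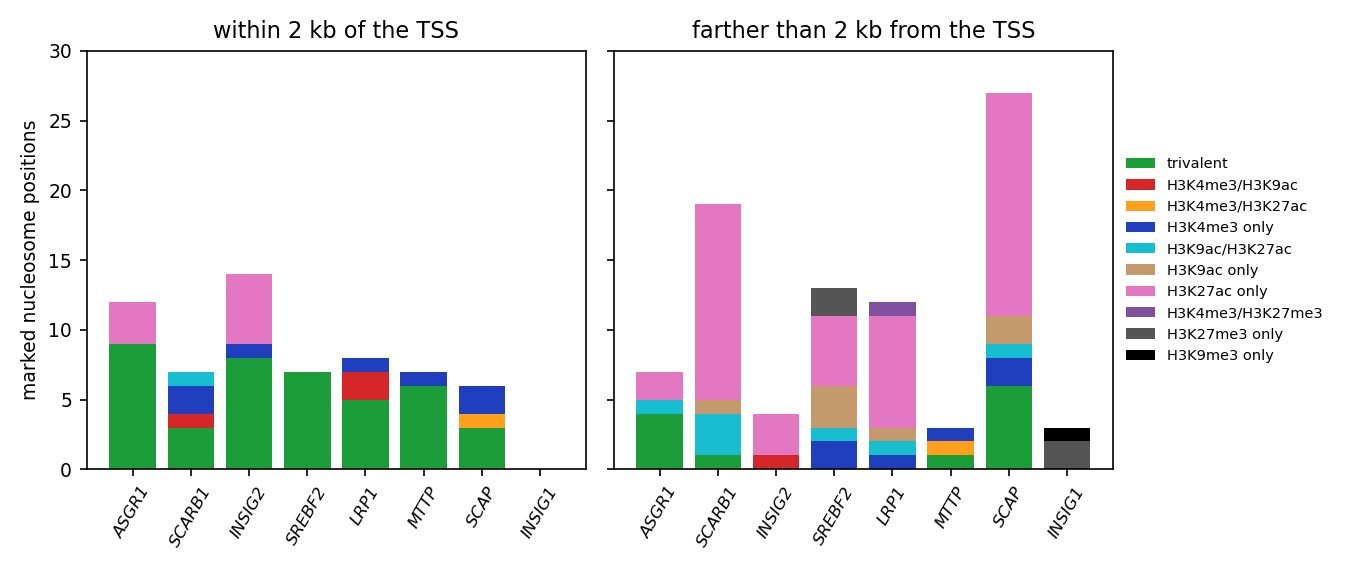
Number of marked nucleosome positions per gene by exact set of marks, within 2 kb of the TSS (left) and farther than 2 kb but inside the locus plus 10 kb (right), with genes in order of FPKM. "T" (green) fills most of the left bars, and H3K27ac alone (pink) most of the right bars of SCARB1, LRP1 and SCAP, with 14, 8 and 16 positions.

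At least 3 "T" within 2 kb of the TSS were found at 7 of the 8 genes, against 26.7% of all named loci and 54.8% of the 5973 named loci with a mean FPKM from 10 to 200, the range that holds the same 7. All 6 "T" of MTTP were nearer to the start of its neighbour RG9MTD2, and when only positions nearest to a gene's own start were counted, 6 of the 8 genes had at least 3 "T", against 24% of named loci. The median over the 7 genes was 6 "T" (5 when counted that way), and that of the 5973 loci was 3, with quartiles of 1 and 4. ASGR1 had 9 "T", INSIG2 had 8, SREBF2 had 7, MTTP had 6, LRP1 had 5, and SCAP and SCARB1 had 3 each. SCARB1, with the second highest FPKM, had 3 "T", the same as SCAP with 15.7, and MTTP had 1 more than LRP1 at a lower FPKM. For the other genes the order of "T" was that of FPKM. No "T" was found at INSIG1, and no H3K4me3 either, so that 7 of the 8 genes had at least 1 H3K4me3 position within 2 kb of the TSS, against 51.6% of named loci. Of the named loci with a mean FPKM of at least 1, 47.2% had at least 3 "T". Among the 22065 named loci, 13265 have coordinates and a symbol of their own. At shared coordinates the listed TSS is an end of the shared stretch and may not be the gene's own start. The shares of named loci given here may therefore be too low.

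**Figure D3:**
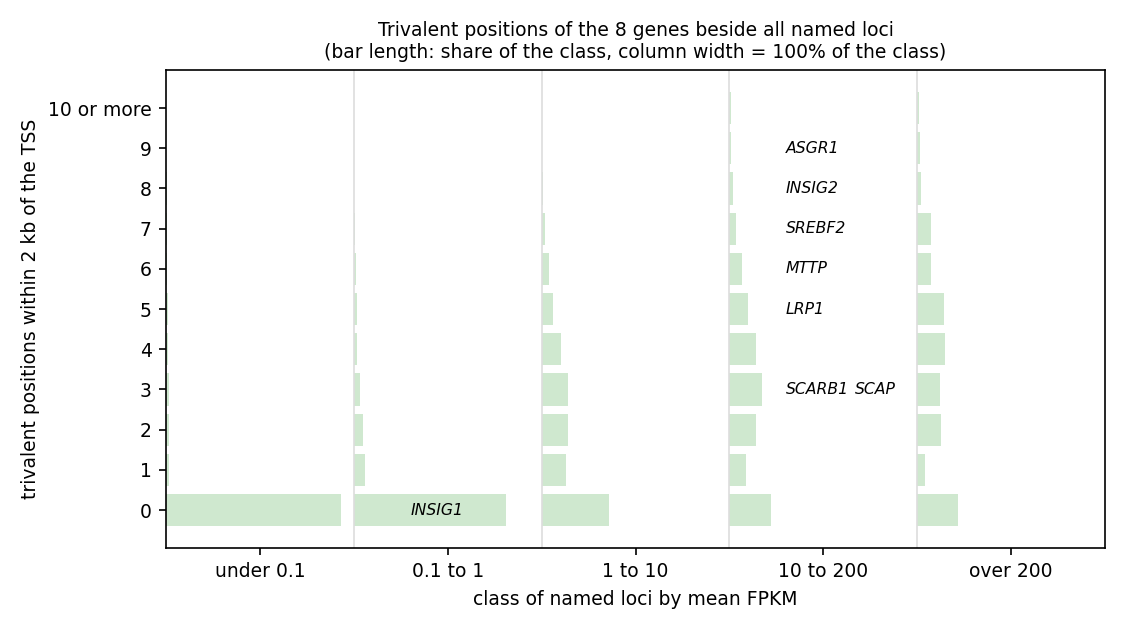
Trivalent positions within 2 kb of the TSS for the 8 genes (names) beside all named loci in 5 classes of mean FPKM. Bar length gives the share of the class at each count, relative to the width of its column. INSIG1 stands at 0 in the class of 0.1 to 1, whose median is 0, and the other 7 stand at 3 to 9 in the class of 10 to 200.

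In the sterol control genes, SREBF2 had the most uniform start. It is listed on chromosome 22 from 42228963 to 42303399 (hg19, plus strand), and all 7 marked positions within 2 kb of its TSS were "T": 2 upstream, centred at -576 and -426 bp from the TSS, and 5 downstream, from 277 to 1159 bp. The last 5 were neighbours in the nucleosome map. Between both groups lay 1 unmarked position and then 293 bp without any position, from -86 to 206 bp. Inside the gene, H3K27ac alone was at 10454 and 10619 bp from the TSS and at 3 positions from 29.6 to 30.1 kb, H3K9ac alone was at 12464 and 13029 bp, H3K9ac/H3K27ac was at 15694 bp, and H3K27me3 was at 1 position at 18601 bp. Past the end of SREBF2, from 76.9 to 78.3 kb, H3K27me3, H3K4me3 (2 positions) and H3K9ac stood alone at 4 positions, all of which lie in an unnamed locus with 0 FPKM (run 1) and 0.0351 FPKM (run 2). Without these, 16 marked positions were nearest to the SREBF2 start.

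SCAP is listed on chromosome 3 from 47418249 to 47517498 on the minus strand. Within 2 kb of its TSS, 6 positions carried marks and all 6 had H3K4me3: 3 were "T", 2 were H3K4me3 alone and 1 was H3K4me3/H3K27ac. They lay from -199 to 1186 bp, around a gap of 533 bp without positions. With 27 H3K27ac positions in its window, SCAP was above 96.8% of named loci, and 23 of these positions were more than 2 kb from the TSS. This rank was not adjusted for window length, which was 119 kb here. The window includes the coordinates shared with PTPN23. Of the 27, 9 lay in a stretch from 94.1 to 96.6 kb and 1 each at 80.7 and 82.0 kb. All of these were farther from the TSS than the RefSeq length of SCAP, 63447 bp. The rank without them was not computed. Stretches of H3K27ac were found at 31.6 to 33.1 kb, with 5 positions and no other mark, and at 50.4 to 51.8 kb, with 4 positions of which 1 also had H3K9ac. The stretch at 94.1 to 96.6 kb held 11 marked positions, 6 of them "T". It lay inside the coordinates shared with PTPN23, nearer to the listed start of PTPN23 (99.2 kb) than to that of SCAP. Counted from the SCAP TSS, this stretch was beyond the RefSeq length of SCAP, and whether it acts on SCAP was not tested. With positions nearer to another start left out, 13 of the 33 marked positions of SCAP were counted. The window also had a stretch of 2890 bp without any nucleosome position, between 24011 and 26901 bp, in which no mark could have been called.

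INSIG1 and INSIG2 differed in the listed marks as well as in the listed FPKM. Whether the low FPKM and the missing activation marks of INSIG1 are true of the cells was not tested. INSIG1 is listed on chromosome 7 from 155087560 to 155101984 on the plus strand, and none of the 169 positions of its window carried H3K4me3, H3K9ac or H3K27ac. Of the 828 named loci with a mean FPKM from 0.5 to 1, 45.2% had none of these marks within 2 kb of the TSS and 9.18% had none in the window, and 21.6% of all named loci had none. Its 3 marked positions had H3K27me3 at 2247 and 17827 bp after the listed start and H3K9me3 at 21927 bp. The widest gap between its positions, 685 bp, ran from 1492 to 2177 bp after the listed start, just before the first H3K27me3 position. Nucleosome positions were mapped on both sides of this gap, with 5 in the first kb after the listed start and 7 between 3 and 4 kb.

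INSIG2 is listed on chromosome 2 from 118845849 to 118868803 on the plus strand. It had 14 marked positions within 2 kb of its TSS, the most of the 8 genes, of which 8 were "T", 5 were H3K27ac alone and 1 was H3K4me3 alone. The H3K27ac positions lay upstream, between -1952 and -727 bp, and a further 2 were at -3502 and -2917 bp. The "T" flanked a gap of 395 bp, with 2 upstream and 6 downstream of the TSS. H3K27me3 and H3K9me3 were not called at any of the 238 positions. The last 2 marked positions were H3K4me3/H3K9ac at 2015 bp and H3K27ac alone at 14385 bp.

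**Figure D4:**
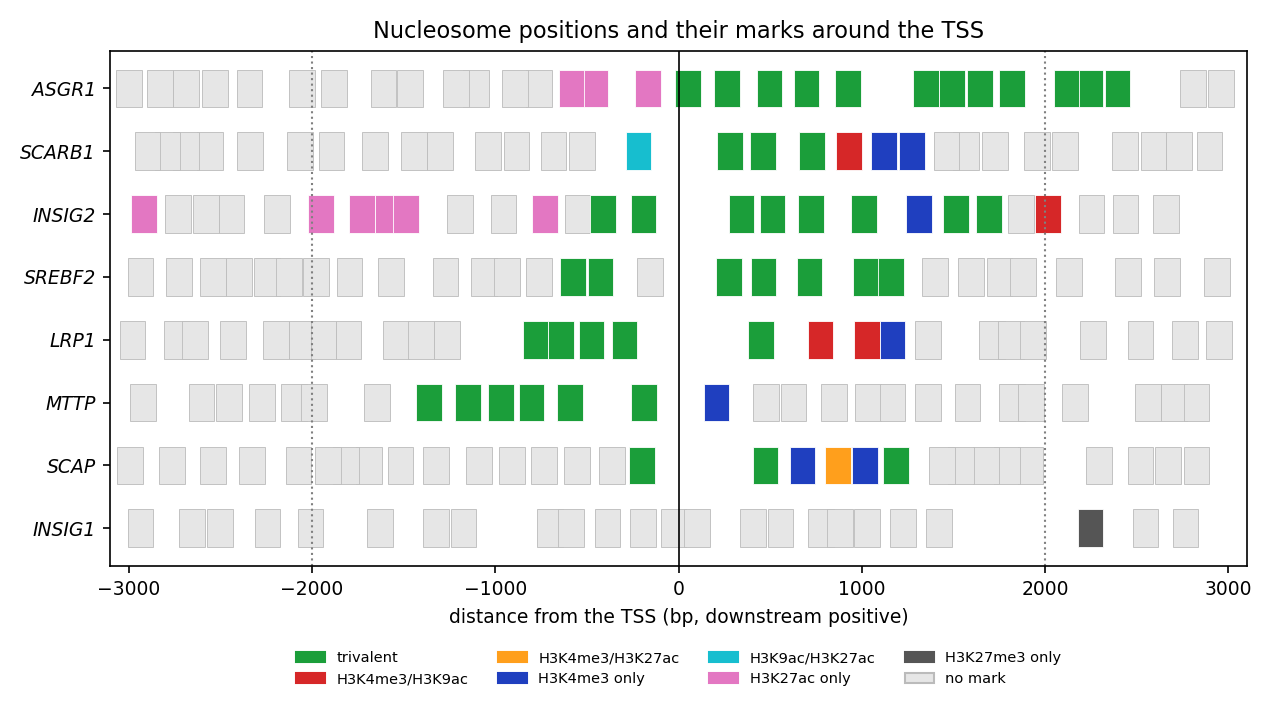
Nucleosome positions (boxes of 140 bp) within 3 kb of the TSS of each gene, coloured by their exact set of marks, with distance from the TSS in bp and genes in order of FPKM. Dotted lines are 2 kb from the TSS. ASGR1 has 12 neighbouring "T" after the TSS, MTTP has 6 before it, and INSIG1 has only 1 marked position, with H3K27me3.

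In the receptors, the pattern of "T" differed from gene to gene. ASGR1, listed on chromosome 17 from 7076725 to 7082883 on the minus strand, had the longest run of neighbouring "T" of the 8 genes, with 12 in a row from 51 to 2396 bp after the TSS, of which 9 were within 2 kb. In hg19 these 12 cover 7080417 to 7082901. No "T" was found within 2 kb upstream, where 3 positions between -584 and -167 bp had H3K27ac alone. A second group of 3 marked positions lay at -4899 to -4464 bp, with 1 "T", 1 H3K9ac/H3K27ac and 1 H3K27ac alone. The first "T" was centred 51 bp after the TSS, and the widest gap in the whole window was 285 bp, the smallest such value of the 8 genes. ASGR2, which encodes the minor subunit, had 175 FPKM (run 1) and 168 FPKM (run 2) beside the values of ASGR1. Its listed coordinates are shared by 3 loci, so the listed start may not be its own. Within 2 kb of that listed start, 0 "T" were counted.

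SCARB1, listed on chromosome 12 from 125262174 to 125348519 on the minus strand, had a graded series of marks after its TSS. In order from the TSS there were 3 "T" between 282 and 727 bp, H3K4me3/H3K9ac at 929 bp, and H3K4me3 alone at 1122 and 1275 bp. Within 2 kb upstream, only 1 position was marked, with H3K9ac/H3K27ac at -218 bp. Farther upstream, H3K9ac alone was at -8443 bp. Its 22 H3K27ac positions were above the number at 94.5% of named loci. This rank was not adjusted for window length, which was 106 kb here. Most of its marks lay inside the gene, and 18 of the 22 H3K27ac positions were more than 2 kb from the TSS. The marked positions there formed a stretch of 6 from 34.7 to 35.7 kb, with 1 "T", a stretch of 8 from 85.1 to 86.6 kb, across the end of the gene, with 6 H3K27ac alone and 2 H3K9ac/H3K27ac, and 4 single H3K27ac positions between 11637 and 50117 bp. No H3K4me3 was found at that last stretch, and no start of another named locus lay within 2 kb of it.

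LRP1, on chromosome 12 from 57522282 to 57607342 on the plus strand, had 4 "T" upstream, between -780 and -295 bp, and 1 "T" at 451 bp after it, across a gap of 606 bp. Further downstream the marks were H3K4me3/H3K9ac at 775 and 1030 bp and H3K4me3 alone at 1168 bp, so H3K27ac ended first and H3K9ac next, as at SCARB1. Within the gene, 8 positions from 20.6 to 22.2 kb had H3K27ac, 1 of them with H3K9ac, and none had H3K4me3. At 87.9 to 88.7 kb, past the end of LRP1 and at the start of NXPH4 (88.3 kb), 1 position had H3K4me3/H3K27me3, 1 had H3K4me3 and 1 had H3K9ac. NXPH4 had 0.283 FPKM (run 1) and 0.112 FPKM (run 2). The H3K27me3 in the LRP1 window was at this neighbouring start and not in LRP1 itself.

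MTTP, listed on chromosome 4 from 100485240 to 100545154 on the plus strand, had marks on the other side of its listed TSS. All 6 "T" were upstream, from -1362 to -188 bp, and the only marked position within 2 kb downstream had H3K4me3 alone, at 207 bp. RG9MTD2 starts at -51 bp from the TSS of MTTP on the opposite strand, with 3.97 FPKM (run 1) and 3.81 FPKM (run 2), and these 6 "T" lie within its locus. To which of both genes they belong cannot be told apart, and with positions nearest to the start of RG9MTD2 left out, 4 of the 10 marked positions of MTTP were counted. The other 3 of these 4 were a separate group inside the gene, at 10897 bp ("T"), 11047 bp (H3K4me3/H3K27ac) and 11150 bp (H3K4me3 alone). RefSeq lists a second start of MTTP 10694 bp downstream of the first, the one with the sequence of lower GC content above, and all 3 positions of this group lay farther from the listed TSS than that distance. No H3K27ac alone was found in the window.

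**Figure D5:**
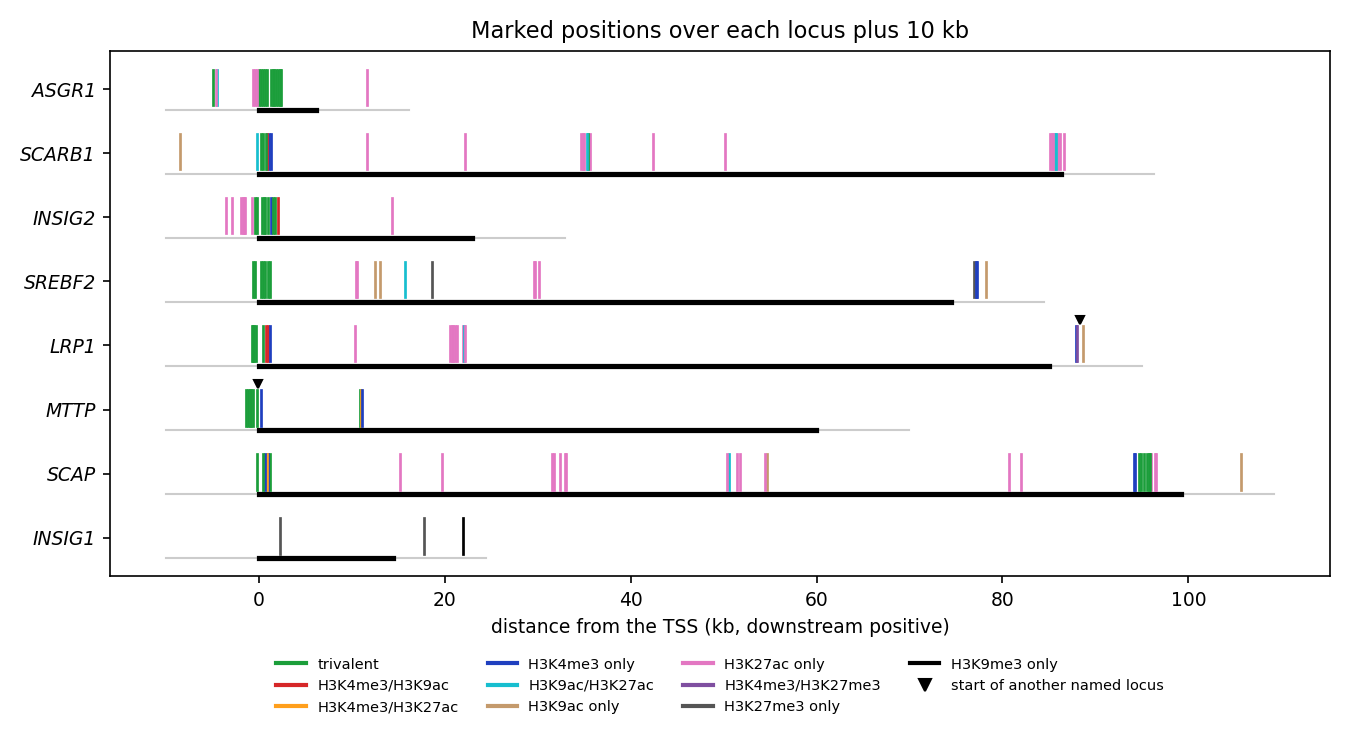
Marked nucleosome positions over each listed locus (black line) plus 10 kb (grey line), by distance from the TSS in kb, coloured by exact set of marks. Triangles are starts of other named loci with coordinates of their own. H3K27ac alone forms stretches inside SCARB1, LRP1, SREBF2 and SCAP, and the marks of MTTP fall into a group before the TSS and a group at 10.9 to 11.2 kb.

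The other genes of the pathway were counted in the same way, from lists that hold no member. Of 10 genes of sterol sensing and SREBP processing, 9 had an FPKM of at least 1 and 5 had at least 3 "T" near the TSS. The highest FPKM was that of ERLIN1 (67.8), which had 2 "T" and acts in sterol-regulated degradation at the endoplasmic reticulum. UBE2G2 was lowest with 0.208, at coordinates shared by 3 loci. Of 15 lipoprotein receptors and adaptors, 14 were at least at 1 and 8 had at least 3 "T". The highest FPKM were those of ASGR2 (171) and LRPAP1 (46.5), the chaperone of LRP1, and LRP2 was lowest with 0.0410. Neither ASGR2 nor LRPAP1 had 3 "T" near the listed TSS. Of 11 genes of sterol trafficking and efflux, 10 and 4 passed these limits, with NPC2 (165) and LIPA (106), both of the lysosome, highest and ABCG1 (0.0288) lowest. Of 9 genes of lipoprotein assembly and remodelling, 8 and 4 passed, with P4HB (461), the partner subunit of MTTP, and MIA2 (72.0) highest and CETP (0.445) lowest.

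The median FPKM of the 8 genes, 37.6, was above the medians of these 4 lists (15.2 to 20.5) and below those of the cholesterol synthesis enzymes and the apolipoproteins. All 20 cholesterol synthesis enzymes found had an FPKM of at least 1, with a median of 84.7, and 9 of the 20 had at least 3 "T", with a median of 2. MVD (273) and FDFT1 (219) were highest and PMVK (11.5) lowest. Among 12 apolipoprotein genes the median FPKM was 250.3 and the median number of "T" was 3. APOA2 (5209) and APOH (2073) were highest there, and APOA1 was lowest with 0.923, at coordinates shared by 2 loci. The APOA1 window had 13 H3K27ac and 11 H3K4me3 positions, and whether its listed FPKM gives the true RNA level was not tested. The median of the 8 genes was 5.5 "T", and the medians of the 6 lists were from 1 to 4. Some list genes share coordinates with other loci, so their listed TSS may not be their own start and "T" can be missed. Of the 8 genes, 7 had H3K4me3 within 2 kb of the listed TSS. How far this moved the counts of "T" in the lists was not tested. These are counts in 1 sample and no test of the difference was possible.

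Last, the named locus most like each of 7 genes was sought over 6 standardised values, the log2 FPKM and the number of positions of each of the 5 marks over the locus plus 10 kb. The closest was DNAJA1 for ASGR1, at a distance of 0.0442 standard deviations, with an FPKM of 176 and 18 H3K27ac positions. INSIG1 was closest to ANXA1 (0.0811), with an FPKM of 1.05, no activation mark, 2 H3K27me3 and 1 H3K9me3 position. MTTP was closest to ISG15 (0.0881), LRP1 to C12orf23 (0.0993), INSIG2 to LASP1 (0.103), SCAP to CCDC85C (0.120) and SCARB1 to CORO1C (0.223).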

How the data were processed

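Native MNase-Seq, ChIP-Seq of 5 marks and RNA-Seq of HepG2 were used, with 1 sample each. The authors aligned the MNase-Seq and ChIP-Seq reads with BWA to hg19 per the labels, called nucleosome positions with DANPOS and peaks at these positions with NUCLIZE, and the deposited lists used here hold coordinates without reads or scores. The read depth at a given position is therefore unknown, and marks that did not pass the filters of the authors cannot be seen. Intervals cover counting error only and treat positions as independent. The RNA-Seq values are FPKM as deposited by the authors, in the layout of Cuffdiff; the labels name TopHat2 2.1.0, Bowtie and HOMER 4.7 among the tools. The columns of the authors' comparison of both runs were not used.

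Each peak was assigned to the position whose identifier it carries and reached 3 bp beyond it. Starts were read as counted from 0 and are printed from 1. Strands were read from how the loci are numbered along each chromosome. As a check, 5638 loci over 10 kb long, with coordinates of their own, had H3K4me3 within 2 kb of a single end, and for 97.7% this was the presumed start. A midpoint within 2 kb was near the TSS, and marked positions at most 1 kb apart formed a stretch. Percentiles are over 22065 named loci, with ties counted at the middle. Likeness used log2(FPKM + 0.01) and log2(1 + positions). Named are the 8 genes, starts within 10 kb of them, 1 most similar locus each, and the 2 highest and the lowest of each list; some of these are not reported here. The members and lists were chosen with earlier results of these data known. Counting was tested on simulated positions, and 50 of 50 planted loci were recovered. Tools were scipy 1.17.1, pandas 2.3.3, numpy 2.4.6, matplotlib 3.10.9 and Python 3.11.15.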

Additional observations from a re-analysis of the deposited data

How the results depend on the processing

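Both limits, an FPKM of at least 1 and at least 3 "T" near the TSS, were passed by 7 of 8 genes, and alternative limits, windows, runs and matching gave counts of 7 or 8 and of 5 to 7. The total of 149 marked positions fell to 107 with no flank around the locus and to 116 when positions nearer to another start were left out. It was 145 with a flank of 5 kb, 171 with 20 kb and 165 with any overlap of at least 1 bp. The 41 "T" fell to 29 within 1 kb of the TSS and were 45 within 5 kb. In an alternative chosen after seeing the data, only "T" nearest to a gene's own start were counted, which gave 35, with 0 in place of 6 at MTTP, and left 6 of 8 genes with at least 3. The median percentile of FPKM, 90.3, was 90.8 with run 1 alone, 84.7 among named loci at a mean FPKM of at least 0.1 and 91.1 among loci with coordinates and a symbol of their own. For single genes, 74 alternatives kept the count within its 95% interval and 6 did not. Besides the "T" of MTTP, these were counts of marked positions: without positions nearer to another start, SCAP had 13 in place of 33 and MTTP 4 in place of 10; with no flank, INSIG2 had 9 in place of 18 and MTTP 4; and with a flank of 20 kb, LRP1 had 34 in place of 20. With a pseudocount of 1, 7 of the 8 most similar loci were the same. The peak lists hold no score, so a stricter limit could not be set, and the read depth at single positions is not known. No paired analysis was possible because each assay has 1 sample.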

Other observations

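Some pathway genes, chosen after their values were seen, had many H3K27ac positions in the locus plus 10 kb but no "T" within 2 kb of the listed TSS. ABCG5 and ABCG8, the sterol exporters of the bile canaliculus, share their coordinates, had 26 H3K27ac positions and 0 "T", and had an FPKM of 8.53 and 5.71. LIPC, the hepatic lipase, had 44 H3K27ac positions, 0 "T" and an FPKM of 20.5, at coordinates shared by 3 loci. At shared coordinates the listed TSS is an end of the shared stretch and may not be the gene's own start. The counts of 0 therefore do not show that the starts of these genes lack "T".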
